A study of Rattus norvegicus with 4 samples.

Results

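The 6 genes described here lie on the mitochondrial genome and encode subunits of cytochrome c oxidase (Co1, Co2 and Co3), cytochrome b (Cytb) and subunits of ATP synthase (Atp6 and Atp8). They were chosen by identifier: ENSRNOG00000034234 for Co1, ENSRNOG00000030371 for Co2, ENSRNOG00000030700 for Co3, ENSRNOG00000031766 for Cytb, ENSRNOG00000031979 for Atp6 and ENSRNOG00000033299 for Atp8. All 6 were found among 26406 listed features, and all 6 passed the filter of a mean of at least 1 RPKM that left 12226 features. RPKM is the read count per length of the gene model and per read total of the library. RNA came from primary ventricular myocytes of 2-day-old Sprague Dawley rats, plated in dishes in 1% ITS medium. Every culture was transfected for 6 h, either with siRNA targeting Chaer, a long noncoding RNA of the heart, or with negative control siRNA. Cells were collected after 48 h. The 4 groups were Chaer siRNA with 50 µM phenylephrine, control siRNA with 50 µM phenylephrine, Chaer siRNA alone and control siRNA alone. Phenylephrine stimulates α1-adrenergic receptors and is used to induce hypertrophic growth of cultured myocytes. The series asked what Chaer contributes to the change of transcripts in that growth. Each group was 1 library, and nothing in the labels says whether the cultures were separate preparations.

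The mitochondrial genome encodes a small set of core subunits of the respiratory chain, while the nucleus encodes the remaining subunits. Complex III, which holds cytochrome b, passes electrons to cytochrome c. Complex IV, cytochrome c oxidase, passes them on to oxygen, and ATP synthase uses the proton gradient so built to make ATP. Mitochondrial genes are transcribed as long precursors that are cut into mature RNAs, so these genes share their transcription start. In mammals, all of these genes are read from the same strand, in the order Co1, Co2, Atp8, Atp6, Co3 and, further along, Cytb. The coding regions of Atp8 and Atp6 overlap and share the same mature mRNA. Heart muscle is rich in mitochondria and in these transcripts.

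The deposited values gave gene models of 1545 bp for Co1, 684 bp for Co2, 784 bp for Co3, 1143 bp for Cytb, 681 bp for Atp6 and 204 bp for Atp8. In 5 of the 6 the length was a whole number of codons, so these are coding lengths. The exception was Co3, whose stop codon is completed by the poly(A) tail in mammals. Levels between genes are compared below per length, in RPKM. Reads from the overlap of Atp8 and Atp6 could fall to either gene, and how they were counted is not given in the sources used here. The nuclear genome holds copies of mitochondrial DNA, and the handling of reads that match both is not given either.

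Read totals were recovered from the deposited counts and RPKM and are called all reads below. They were 40835172 for Chaer siRNA with phenylephrine and 35314303 for control siRNA with phenylephrine. Without phenylephrine they were 40394068 for Chaer siRNA and 36989888 for control siRNA. Of these totals, 3.88% to 4.29% lay outside the listed features. Whether the totals count sequenced or mapped reads is not given in the sources used here. No listed feature was named Chaer, and its knockdown was not checked. Of the listed features, 26405 carry an Ensembl identifier and 1 a symbol, so myocyte markers could not be checked by symbol. Which transcript that 1 symbol stands for, and whether it is Chaer under another name, was not examined here. In such bulk RNA, fewer cells of a type and less RNA per cell cannot be told apart. All intervals below are 95% counting intervals and include no variation between cultures.

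The 6 genes together took 8.40% of all reads (8.391% to 8.408%) in Chaer siRNA with phenylephrine and 9.67% (9.665% to 9.685%) in control siRNA with phenylephrine. They took 11.1% (11.05% to 11.07%) in Chaer siRNA alone and 13.8% (13.79% to 13.81%) in control siRNA alone. The share was thus lowest where both agents were given and highest where neither was. The 3 complex IV genes held 6.16%, 7.09%, 8.21% and 10.2% of reads in the same order of libraries. Atp6 and Atp8 held 0.826%, 1.11%, 1.32% and 1.65%. Co1 alone supplied 53.4%, 49.4%, 53.5% and 49.5% of the reads of the 6 genes, so their sum leans on Co1. All 6 genes were among the 10 features of highest RPKM in each library, and Co1 was the highest of all features in each. How RNA was selected for the libraries bears on such shares and is not given in the sources used here.

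**Figure D1:**
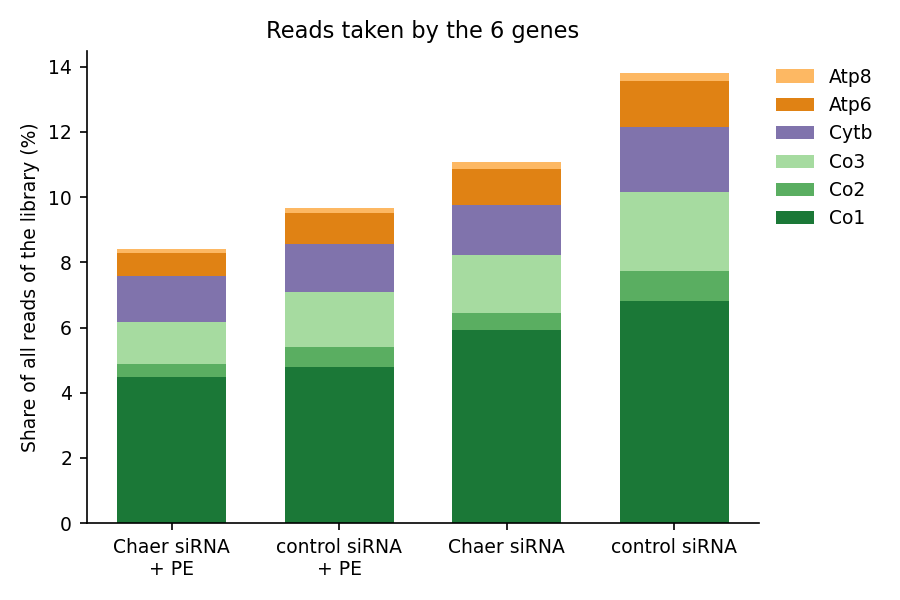
Share of all reads of each library (vertical axis, %) taken by the 6 genes, stacked by gene, for 1 library per group; PE is phenylephrine. The stacks reach 8.40%, 9.67%, 11.1% and 13.8% from left to right, with Co1 the largest part of each.

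Co1, the catalytic core of complex IV, which holds its heme groups and one of its copper centres, had 29015 RPKM in Chaer siRNA with phenylephrine and 30960 RPKM in control siRNA with phenylephrine. Its level was 38336 RPKM in Chaer siRNA alone and 44204 RPKM in control siRNA alone. Co1 was lower with phenylephrine under both siRNAs, while its levels with the 2 siRNAs lay close together once phenylephrine was present.

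Co2, which carries the other copper centre and accepts electrons from cytochrome c, had 5801 RPKM in Chaer siRNA with phenylephrine and 9009 RPKM in control siRNA with phenylephrine. It had 7788 RPKM in Chaer siRNA alone and 13283 RPKM in control siRNA alone. Its 2 lowest libraries were both Chaer siRNA libraries. It was the only one of the 6 genes with a lower level in Chaer siRNA alone than in control siRNA with phenylephrine.

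Co3, the third mitochondrially encoded core subunit of complex IV, had 16339 RPKM in Chaer siRNA with phenylephrine and 21577 RPKM in control siRNA with phenylephrine. Without phenylephrine it had 22413 RPKM with Chaer siRNA and 31016 RPKM with control siRNA. Control siRNA alone stood above the other 3 libraries, and the 2 middle libraries lay close together.

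Cytb, the heme-bearing core of complex III, had 12359 RPKM in Chaer siRNA with phenylephrine and 12935 RPKM in control siRNA with phenylephrine. It had 13396 RPKM in Chaer siRNA alone and 17315 RPKM in control siRNA alone. The first 3 of these levels were similar, and control siRNA alone was the high one. Its highest level was 1.40 times its lowest, the narrowest range of the 6 genes, against 2.29 times for Co2, the widest.

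Atp6, the subunit that forms the proton path of ATP synthase, had 10290 RPKM in Chaer siRNA with phenylephrine and 13700 RPKM in control siRNA with phenylephrine. It had 16563 RPKM in Chaer siRNA alone and 20700 RPKM in control siRNA alone. Atp8, a small membrane subunit of the same enzyme, had 6154 and 8446 RPKM with phenylephrine under Chaer siRNA and control siRNA, and 9391 and 11870 RPKM without it, in that order of siRNAs. Both ATP synthase genes were lower in each phenylephrine library than in either library without it.

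Within each library the levels differed by more than counting error at every step of their order, as each interval reached at most 0.867% to either side of its value. Co1 was first and Co3 second in all 4 libraries. Below them the order changed. Cytb was above Atp6 in Chaer siRNA with phenylephrine, by 1.20 times, and below it in the other 3 libraries. Co2 was the lowest of the 6 in both Chaer siRNA libraries, with Atp8 1.06 times higher with phenylephrine and 1.21 times higher without it. In both control siRNA libraries Atp8 was the lowest instead, with Co2 1.07 times higher with phenylephrine and 1.12 times higher without it. Steps this small cannot be set against variation between cultures. Atp6 was above Atp8 in every library although they share the same mature mRNA, so a step in RPKM need not be a step in transcript level. Counting intervals also leave out how reads from the overlap of Atp8 and Atp6 were assigned.

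**Figure D2:**
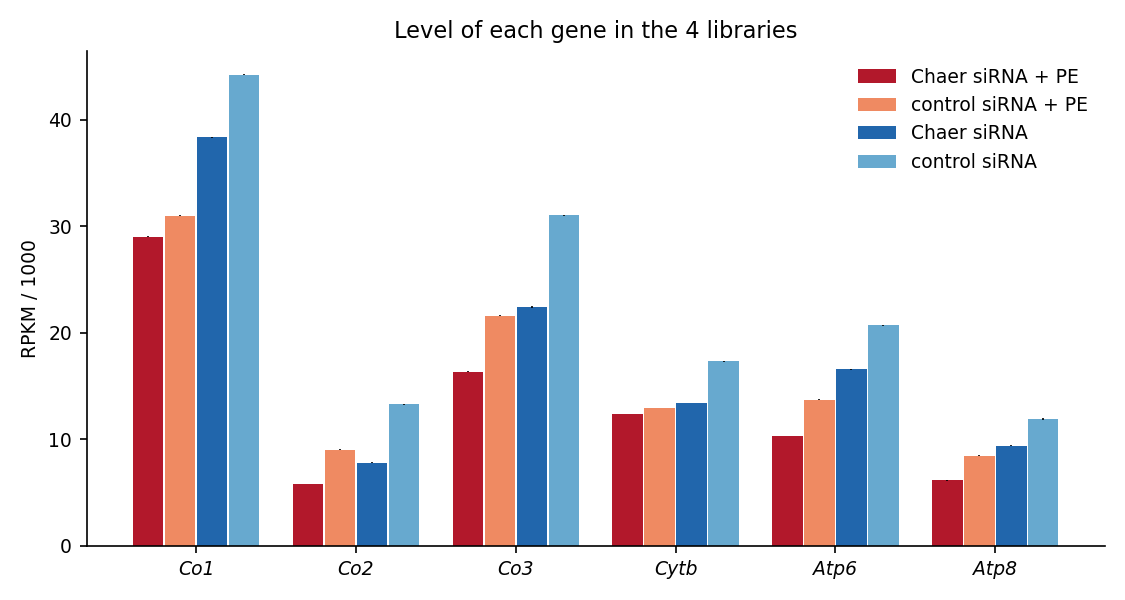
Level of each gene (vertical axis, RPKM divided by 1000, from 0) in the 4 libraries; bars are single libraries and the error bars, mostly too short to see, are 95% counting intervals. For each gene Chaer siRNA with phenylephrine is the lowest bar and control siRNA alone the highest, from 29015 to 44204 RPKM for Co1 and from 5801 to 13283 RPKM for Co2.

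The phenylephrine response with Chaer siRNA was a lower level of all 6 genes, led by the ATP synthase genes. Atp6 was 1.61 times lower with phenylephrine (1.60 to 1.62) and Atp8 was 1.53 times lower (1.51 to 1.54). The complex IV genes followed, with Co3 1.37 times lower (1.37 to 1.38), Co2 1.34 times lower (1.33 to 1.35) and Co1 1.321 times lower (1.319 to 1.324). Cytb was 1.08 times lower (1.08 to 1.09). No gene of the 6 reached 2-fold, against 1.97% of the 12226 features in either direction. At 1.5-fold, 2 of the 6 were past the rule, Atp6 and Atp8, against 5.91% of features that were lower by as much. These 2 genes share the same mature mRNA and are not independent of each other. All 6 ratios were below 1, as were 62.1% of features. The median log2 ratio of (RPKM + 1) was -0.44 over the 6 genes and -0.10 over all features. The ratio of Cytb lay near the middle of all features, with 47.4% at or below it, and became -0.0019 on the log2 scale with edgeR's TMM scaling. For Atp6 that share of features was 3.44%.

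The phenylephrine response with control siRNA was a lower level of all 6 genes by a similar factor. The log2 ratios of (RPKM + 1) ran from -0.60 for Atp6 to -0.42 for Cytb, a width of 0.17, compared with 0.57 under Chaer siRNA. Atp6 was 1.51 times lower (1.504 to 1.518) and Co2 1.47 times lower (1.47 to 1.48). Co3, Co1 and Atp8 were 1.44, 1.43 and 1.41 times lower, and Cytb was 1.34 times lower (1.33 to 1.34). Again none reached 2-fold, against 1.73% of features in either direction. At 1.5-fold 1 of the 6, Atp6, was past the rule, against 4.02% of features lower. All 6 ratios were below 1, as were 60.5% of features, and the median log2 ratio was -0.52 over the 6 genes and -0.07 over all features. Atp6, at the lower end, had 3.78% of features at or below its ratio, and Cytb, at the upper end, had 9.77%.

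Chaer siRNA with phenylephrine, set against control siRNA with phenylephrine, divided the 6 genes. Co2 was 1.55 times lower with Chaer siRNA (1.54 to 1.56). Atp8, Atp6 and Co3 were 1.37, 1.33 and 1.32 times lower. Co1 was 1.07 times lower (1.06 to 1.07) and Cytb 1.05 times lower (1.04 to 1.05). Of the 6 genes, 0 reached 2-fold, against 1.85% of features, and 1, Co2, was at least 1.5-fold lower, against 4.31%. All 6 ratios were below 1, against 54.2% of features, but those of Co1 and Cytb lay within the bulk of the features, with 41.0% and 44.97% at or below them. The median log2 ratio was -0.41 over the 6 genes and -0.03 over all features.

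Chaer siRNA without phenylephrine, set against control siRNA alone, again had its lowest ratio at Co2. Co2 was 1.71 times lower with Chaer siRNA (1.70 to 1.71), the largest ratio of any of the 6 genes in the 4 comparisons. Co3 was 1.38 times lower, Cytb 1.29 times lower, Atp8 1.26 times lower and Atp6 1.25 times lower. Co1 was 1.15 times lower (1.15 to 1.16). None reached 2-fold, against 2.13% of features, and Co2 was the 1 gene at least 1.5-fold lower, against 6.21%. All 6 ratios were below 1, against 47.9% of features, and the median log2 ratio was -0.35 over the 6 genes and 0.02 over all features. Co2 had 2.81% of features at or below its ratio, and Co1 had 25.7%. The comparisons of phenylephrine share their libraries with those of the siRNA, so the directions in the 4 comparisons are not independent of each other, and neither are the 6 genes.

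**Figure D3:**
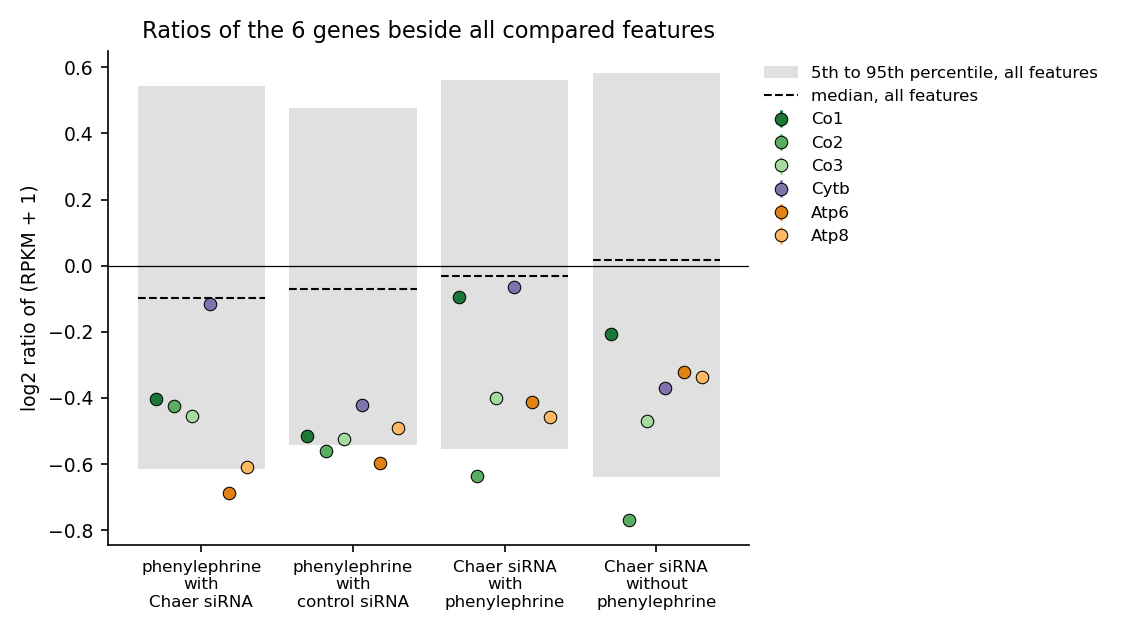
Log2 ratio of (RPKM + 1) (vertical axis) of each gene in the 4 comparisons, with 95% counting intervals that are shorter than the symbols; grey boxes span the 5th to the 95th percentile of the 12226 features and dashed lines mark their median. The 6 genes lie below the dashed line in each comparison, from -0.42 to -0.60 for phenylephrine with control siRNA and more widely spread in the other 3.

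All 24 ratios kept their sign under the 4 other scalings, a check per gene that was added after seeing the data, the nearest to 0 being that of Cytb given above. The sum of the 6 genes was 1.32 times lower with phenylephrine under Chaer siRNA and 1.43 times lower under control siRNA. With Chaer siRNA it was 1.15 times lower in phenylephrine and 1.25 times lower without it. Since the 6 genes take so many reads, a lower level of them raises the share of all other features when libraries are scaled to their total. Scaling to the reads of all other listed features gave log2 ratios of the sum of -0.44 and -0.59 for phenylephrine under Chaer siRNA and control siRNA, compared with -0.40 and -0.51. Of the 20 other features of highest mean RPKM, 8 were lower with phenylephrine under Chaer siRNA and 8 under control siRNA. Lower with Chaer siRNA were 13 of these 20 in the presence of phenylephrine and 7 in its absence.

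The difference between the phenylephrine responses, the log2 ratio under Chaer siRNA less the one under control siRNA, was largest for Cytb among the 6 genes. The log2 ratio of Cytb was -0.12 under Chaer siRNA and -0.42 under control siRNA. On the log2 scale the difference was 0.30 (0.30 to 0.31) for Cytb, 0.14 (0.12 to 0.15) for Co2, 0.11 (0.11 to 0.12) for Co1 and 0.07 (0.06 to 0.07) for Co3. It was -0.09 (-0.10 to -0.08) for Atp6 and -0.12 (-0.14 to -0.10) for Atp8. The phenylephrine ratios of the complex III and IV genes were thus nearer to 1 under Chaer siRNA than under control siRNA, and those of the ATP synthase genes farther from 1. Of the 6, 4 were above 0, against 41.5% of features, and 0 reached 2-fold, against 0.540%. The median was 0.09 over the 6 genes and -0.06 over all features. Atp6 and Atp8 lay near the middle of all features, with 45.5% and 41.5% at or below their differences. For the 4 others that share ran from 66.5% for Co3 to 85.2% for Cytb. With 1 library a group no test of this difference was available, and each gene lay inside the range of -0.44 to 0.56 that held the central features, from the 5th to the 95th percentile.

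Ratios between the genes within a library do not depend on how libraries are scaled. Of the 15 pairs, Co2 and Cytb moved most, by 1.63 times over the 4 libraries. Co2 stood at 0.469 of the level of Cytb in Chaer siRNA with phenylephrine and 0.696 in control siRNA with phenylephrine. It stood at 0.581 in Chaer siRNA alone and 0.767 in control siRNA alone. The pair that moved least was Atp6 and Atp8, the overlapping genes, with Atp6 at 1.67, 1.62, 1.76 and 1.74 times the level of Atp8 in the same order of libraries, a range of 1.09 times. Counting error on these log2 ratios was at most 0.0073 (SE).

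The libraries of the 2 siRNAs lay apart in the ratio of Co2 to each other gene of the 6. Within complex IV they also lay apart in the ratio of Co1 to Co3. The pairs within complex IV were chosen for description after their values were seen. The ratio of Co1 to Co2 was 5.001 in Chaer siRNA with phenylephrine and 4.92 in Chaer siRNA alone, against 3.44 in control siRNA with phenylephrine and 3.33 in control siRNA alone. That of Co1 to Co3 was 1.78 and 1.71 in the Chaer siRNA libraries with and without phenylephrine, against 1.43 and 1.43 in the control siRNA libraries. That of Co2 to Co3 was 0.355 and 0.347 with Chaer siRNA, against 0.418 and 0.428 with control siRNA. Co2 made up 7.26% and 7.22% of the RPKM of the 6 genes in the Chaer siRNA libraries with and without phenylephrine, against 9.32% and 9.60% in the control siRNA libraries. Co1 made up 36.3% and 35.5% with Chaer siRNA, against 32.0% and 31.9% with control siRNA. In these values the libraries of each siRNA lay together whether or not phenylephrine was given, and those of the 2 siRNAs did not overlap. The ratios share genes and the shares are parts of 1 total, so these are not separate results. This parting was not particular to complex IV. The ratio of Co2 to Atp6 was 0.564 and 0.470 in the Chaer siRNA libraries with and without phenylephrine, against 0.658 and 0.642 with control siRNA. Ratios of Co2 to Cytb and Atp8, and of Co1 to Atp6 and Atp8, parted the siRNAs too, and that of Co1 to Cytb did not. Pairs without Co1 or Co2, such as Co3 and Atp8, did not part them. How often other features part the 4 libraries in this way was not counted, so the parting only describes these libraries. Cytb differed in another way. Its part was 15.5% in Chaer siRNA with phenylephrine, against 13.4% in control siRNA with phenylephrine, 12.4% in Chaer siRNA alone and 12.5% in control siRNA alone. Atp6 made up 12.9% in Chaer siRNA with phenylephrine, against 14.2%, 15.4% and 14.96% in those other 3 libraries.

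**Figure D4:**
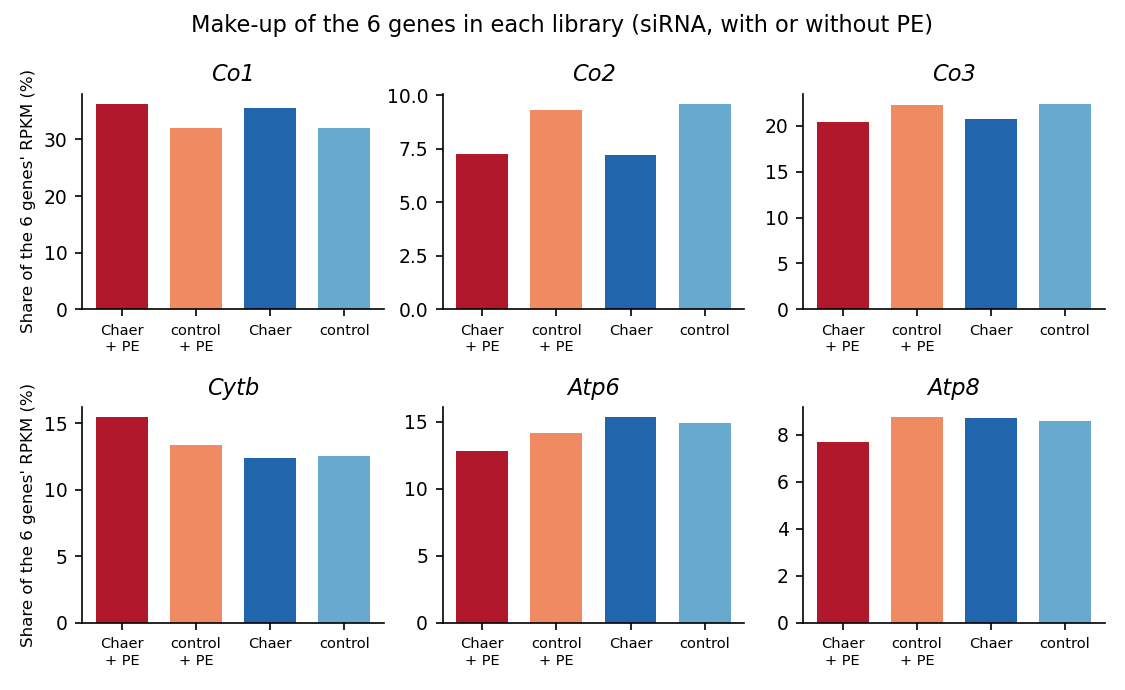
Share of the summed RPKM of the 6 genes held by each gene (vertical axis, %, from 0, with its own scale per panel) in single libraries; Chaer and control name the siRNA and PE is phenylephrine. Co2 holds 7.26% and 7.22% in the Chaer siRNA libraries and 9.32% and 9.60% in the control siRNA libraries, while Cytb is highest, at 15.5%, in Chaer siRNA with phenylephrine.

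An additive model over all 4 libraries set the 2 libraries with phenylephrine against the 2 without it, and those of the 2 siRNAs likewise. In this edgeR quasi-likelihood fit, the ATP synthase genes were lower with phenylephrine. Atp6 fell by 0.54 ± 0.19 (SE) on the log2 scale (adjusted p = 0.0341) and Atp8 fell by 0.45 ± 0.16 (adjusted p = 0.0320). These were 2 of the 6 genes called lower, against 6.59% of the 12226 features. Since Atp6 and Atp8 overlap and share the same mature mRNA, they are not 2 independent calls. The 4 others had log2 changes of -0.40 for Co2, -0.39 for Co3, -0.36 for Co1 and -0.17 for Cytb, with edgeR adjusted p from 0.128 to 0.655. With Chaer siRNA, Co2 was 1.64 times lower in the edgeR fit, a log2 change of -0.71 ± 0.18 (SE) with adjusted p = 0.00107. This was 1 of the 6 genes called lower, against 10.2% of features. Atp8 had -0.40 ± 0.16 (edgeR adjusted p = 0.0534), Co3 had -0.44 ± 0.20 (adjusted p = 0.118) and Atp6 had -0.37 ± 0.19 (adjusted p = 0.169). Cytb and Co1 had log2 changes of -0.23 and -0.16, with edgeR adjusted p of 0.505 and 0.724.

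The p-values of this fit rest on the departure of all genes from additivity, with 1 residual degree of freedom, and not on replicate cultures. The prior degrees of freedom, the weight given to the spread pooled over genes, were infinite. The tests thus treated that spread as known, and the p-values are smaller than 1 degree of freedom alone would give. The SE given for edgeR is the size of the log2 change divided by the square root of its F statistic. It rests on the same spread, pooled over genes, and is not an error estimated from each gene alone. In edgeR models that held a single factor, 0 of the 6 genes passed for either factor and 0 had an unadjusted p under 0.05. In those models 0.00% of all features were called lower for either factor, while 8 were called higher for phenylephrine and 1 for Chaer siRNA. The log2 changes stayed close, at -0.54 for Atp6 and -0.45 for Atp8 with phenylephrine and -0.72 for Co2 with Chaer siRNA. DESeq2 called Atp6 and Atp8 lower for phenylephrine, against 2.80% of features, and Co2 and Co3 lower for Chaer siRNA, against 3.41%.

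**Figure D5:**
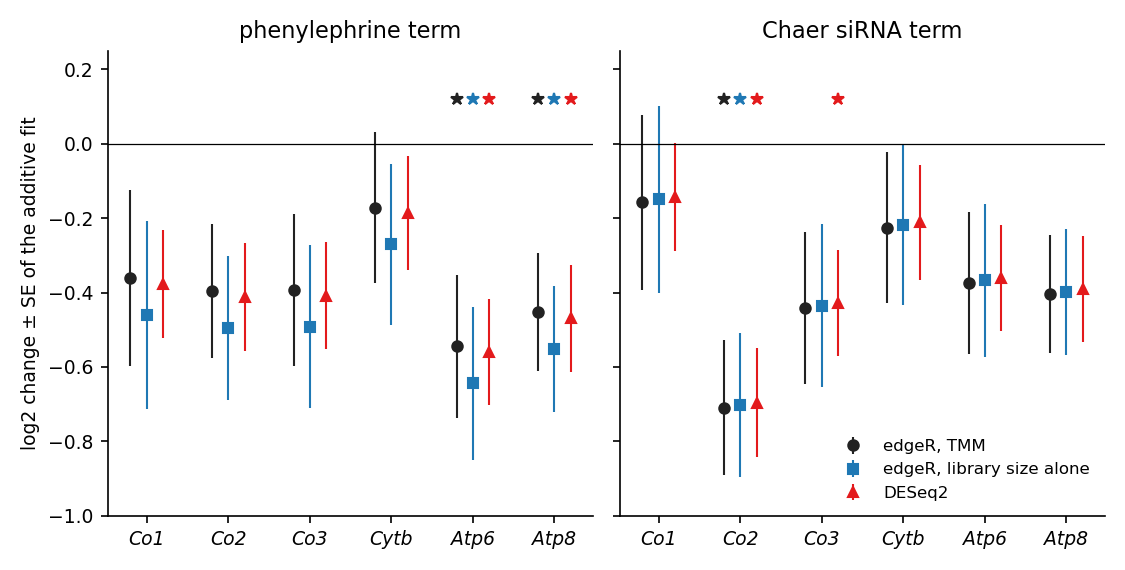
Log2 change of each gene with its SE (vertical axis) in the additive fit, for phenylephrine (left) and Chaer siRNA (right), by edgeR with TMM scaling, edgeR with library size alone and DESeq2; stars mark an adjusted p under 0.05. All changes lie below 0, Atp6 and Atp8 are starred for phenylephrine, Co2 is starred for Chaer siRNA in all 3 fits, and Co3 is starred there in DESeq2 alone. The SE of edgeR is derived from its F statistic.

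The features whose profile over the 4 libraries lay nearest to the mean profile of the 6 genes were ENSRNOG00000023540 and ENSRNOG00000048897. Likeness was the Euclidean distance between centred log2(RPKM + 1) values, 0.037 and 0.053. ENSRNOG00000023540 had 2.05 RPKM in Chaer siRNA with phenylephrine and 2.87 RPKM in control siRNA with phenylephrine. Its level was 3.06 RPKM in Chaer siRNA alone and 4.40 RPKM in control siRNA alone, far below the levels of the 6 genes. ENSRNOG00000048897 had 4.22, 5.38, 5.81 and 8.33 RPKM in the same order of libraries. At levels this low the added 1 narrows the log2 differences between libraries, which it hardly does for the 6 genes. Likeness without the added 1 was not computed. Among the 6 genes Co3 lay nearest to their mean, at a distance of 0.057, with 2 other features nearer still. Co2 lay farthest, at 0.33, and 824 features that are not among the 6 genes were nearer to the mean than Co2 was. With 4 libraries such a likeness is a description of these libraries.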

How the data were processed

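RNA of neonatal rat ventricular myocytes was sequenced in 4 stranded TruSeq libraries, per the labels' protocols. The submitters' processing notes name TopHat2 and rn5. Not given in the sources used here are the counting tool, annotation release, strand setting, RNA selection step and handling of reads with several matches. For each of 26406 features the authors deposited counts as whole reads and, beside them, RPKM values, which divide the count by gene length and library total, per the file headers.

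Gene lengths and read totals were recovered from count over RPKM, which left lengths at most 6.38e-08 bp away from whole numbers in the 4938 features above 1000 reads in every library. Shares were taken of these totals, which ran from 35314303 to 40835172 reads. Ratios were log2 of (RPKM + 1) in one library over the same in another, for the 12226 features that averaged 1 RPKM or more. With 1 library a group they carry no replicate error and no p-value. Intervals at 95% were exact Poisson for levels, exact binomial for shares and ratios, and a normal approximation on log counts for differences of ratios. They cover counting error only, since without molecular identifiers a read is not an independent molecule. An additive edgeR 4.0.16 quasi-likelihood fit of siRNA plus phenylephrine (TMM scaling, Benjamini-Hochberg adjustment over 12226 features, threshold 0.05) used all 4 libraries and left 1 residual degree of freedom. DESeq2 1.42.0, other scalings, pseudocounts, filters and a 1.5-fold rule were alternatives. Scripts were tested on simulated counts.

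All 6 genes were named by rule, with the 2 features of most similar profile and the pairs of genes whose ratio moved most and least. The genes, lists and tests were chosen with earlier results of these data known. Lists of nuclear respiratory genes and of cell type markers could not be applied, because the reference table paired 0 of the listed identifiers with a symbol.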

Additional observations from a re-analysis of the deposited data

How the results depend on the processing

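With reads of the listed features as the total, the log2 ratios of the summed genes were -0.52 for phenylephrine with control siRNA, -0.20 for Chaer siRNA with phenylephrine, -0.32 for Chaer siRNA without it, and 0.12 for the difference of the phenylephrine effects. For phenylephrine with Chaer siRNA, phenylephrine with control siRNA, Chaer siRNA with and without phenylephrine, and the difference, in that order, TMM scaling gave -0.28, -0.43, -0.19, -0.34 and 0.15. Median-of-ratios scaling gave -0.30, -0.45, -0.18, -0.33 and 0.16, and totals without the 6 genes gave -0.44, -0.59, -0.22, -0.37 and 0.15. TMM moved the median of all features by 0.099 for phenylephrine with Chaer siRNA. The fold rule of 1.5 gave 2, 1, 1 and 1 genes in the 4 comparisons, in place of 0. A pseudocount of 0.1 passed 424, 351, 433 and 463 features at 2-fold in place of 241, 211, 226 and 261, and none of the 6 genes.

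In edgeR fits scaled to reads outside the 6 genes, 4 were called lower for phenylephrine (Co2, Co3, Atp6, Atp8) in place of 2, while features called lower became 15.7% in place of 6.59%. For Chaer siRNA 2 were called (Co2, Atp8) in place of 1, with 11.5% of features in place of 10.2%. Called for Chaer siRNA were also 2 with no filter beyond at least 1 read (Co2, Co3), with 6.97% of 18629 features. At a mean of at least 5 RPKM 2 were called (Co2, Atp8), with 6.93% of 8895 features. With DESeq2 2 were called, with 3.41% of 12226 features. With the other factor left out, 0 genes and 0 of 12226 features were called lower for either, the lowest adjusted p of the 6 genes being 0.578 and 0.393, while 1217 and 1615 features had an unadjusted p under 0.05. The log2 changes kept their sign in every fit. The cause of these shifts was not tested. DESeq2 called 342 features lower and 561 higher for phenylephrine, against 806 and 1071, and 417 lower and 646 higher for Chaer siRNA, against 1243 and 1154. Library size alone gave 1285 lower and 703 higher for phenylephrine. No paired analysis was possible because no replicate numbers link the libraries; the additive fit already blocks on the other factor, and the fits with a single factor do not. No library could be left out, since its group would vanish.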
